A study of Mus musculus with 2 samples.

Results

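The genes described here encode the mitochondrial respiratory chain and its ATP synthase, together with a few of the factors that assemble it. They were taken by symbol: nuclear genes whose names begin with Nduf, Uqcr, Cox4, Cox5, Cox6, Cox7, Cox8 or Atp5, the 4 genes Sdha to Sdhd, and the mitochondrial genes mt-Nd, mt-Co, mt-Atp and mt-Cytb. The rule gave 106 of the 31053 genes listed, of which 93 are nuclear-encoded and 13 are encoded by the mitochondrial genome. By role the nuclear genes were 44 genes of complex I (7 core subunits, 29 accessory subunits and 8 assembly factors of the Ndufaf type), 4 of complex II, 8 of complex III, 20 of complex IV (11 widely expressed subunits, 8 tissue-restricted subunits and the supercomplex factor Cox7a2l) and 16 of complex V, and a further identifier with the symbol Atp5o made up the 93. The mitochondrial genes were 7 of complex I, 1 of complex III, 3 of complex IV and 2 of complex V.

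The measurements are droplet single-cell RNA counts from the colon of wild-type C57BL/6 mice. A library made after THC (tetrahydrocannabinol, the main psychoactive cannabinoid) at 10 mg/kg was set beside a library made after the vehicle control. The colons had been digested to free epithelium and lamina propria, and the lamina propria fraction had been enriched on a density gradient. There was 1 library per group, with no replicate. The sources used here give neither the number or sex of the mice behind a library nor the dosing times. No difference between the libraries could therefore be set against the spread between animals, and no test was made.

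The respiratory chain passes electrons from nutrients to oxygen through complexes I to IV and uses the energy to pump protons, and ATP synthase (complex V) lets the protons flow back to make ATP. Complexes I, III, IV and V hold subunits of both genomes, so nuclear and mitochondrial transcripts must supply the same machines, while complex II is wholly nuclear-encoded. Several subunits of complex IV come in a widely expressed form and a tissue-restricted form (heart or muscle, lung, or testis). In the colon, absorptive colonocytes are known to burn butyrate from the microbiota in their mitochondria.

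A barcode was kept as a cell with at least 1000 unique molecular identifiers (UMIs, which count captured RNA molecules), at least 200 genes and under 20% mitochondrial UMIs, which left 460 cells of the THC library and 750 of the vehicle library. They held 5185189 and 6864557 UMIs in all, with medians of 9072.5 and 7384 a cell, and 0 barcodes were shared. The deposited vehicle matrix had been reduced to 973 barcodes and the THC matrix had not, and the mitochondrial limit removed 168 THC barcodes (26.8%) and 161 vehicle barcodes (17.7%), which were rich in colonocyte transcripts. Cells were clustered without any respiratory chain gene and named from marker genes, so a class is called "X-like". Of 17 named classes, 7 had at least 20 cells in each library: colonocyte-like (68 THC and 80 vehicle cells), undifferentiated crypt-like (47 and 79), goblet-like (55 and 90), fibroblast-like (81 and 136), smooth muscle-like (48 and 74), B-like (37 and 72) and T-like (23 and 31). Intervals below are exact 95% intervals that cover counting error only.

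All 13 mitochondrial genes and 89 of the 93 nuclear genes reached 50 UMIs over all cells. The exceptions were Cox6a2, the heart and muscle form of subunit 6a, with 1 UMI, and Cox7b2 and Cox8c, testis-type forms, and the further Atp5o identifier, each with 0 UMIs.

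The stretches of DNA just upstream of 6 members are shown first: 3 widely expressed subunits, and 3 tissue-restricted forms whose shares by cell class are given below. Promoters of respiratory chain genes are known to hold sites for NRF1, searched here as the letters GCGCA and GCGC with any 1 base between them, and for ETS factors such as GABP, searched as CCGGAAG, on both strands. Capitals mark a match. Each stretch is the 150 bases before the annotated start, read 5′ to 3′ on the gene's strand, from RefSeq (GRCm38.p6), which may not be the build the authors used. Cox6a1 at chr5:115348959-115349108 (minus strand) held an NRF1 match and an ETS match. Atp5k at chr5:108434400-108434549 (minus strand) held an NRF1 match, and Cox6b1 at chr7:30626115-30626264 (minus strand) an ETS match. The restricted forms Cox6b2 at chr7:4753095-4753244 (minus strand), Cox7a1 at chr7:30184021-30184170 (plus strand) and Cox8b at chr7:140900447-140900596 (minus strand) held none in these letters.
Cox6a1: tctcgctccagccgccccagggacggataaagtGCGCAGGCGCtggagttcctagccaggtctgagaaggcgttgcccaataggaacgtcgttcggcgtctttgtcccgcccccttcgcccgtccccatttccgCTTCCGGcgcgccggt
Atp5k: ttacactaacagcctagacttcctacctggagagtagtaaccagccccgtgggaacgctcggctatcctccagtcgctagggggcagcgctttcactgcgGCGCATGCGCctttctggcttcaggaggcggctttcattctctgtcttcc
Cox6b1: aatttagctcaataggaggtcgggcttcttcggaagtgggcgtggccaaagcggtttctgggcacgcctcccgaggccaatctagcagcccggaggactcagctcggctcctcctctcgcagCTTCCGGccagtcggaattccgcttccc
Cox6b2: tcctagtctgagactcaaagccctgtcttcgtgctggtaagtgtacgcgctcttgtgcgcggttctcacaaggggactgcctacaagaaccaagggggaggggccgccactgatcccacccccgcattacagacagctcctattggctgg
Cox7a1: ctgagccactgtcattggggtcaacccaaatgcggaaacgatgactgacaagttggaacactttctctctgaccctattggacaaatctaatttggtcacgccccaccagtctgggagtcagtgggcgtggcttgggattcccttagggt
Cox8b: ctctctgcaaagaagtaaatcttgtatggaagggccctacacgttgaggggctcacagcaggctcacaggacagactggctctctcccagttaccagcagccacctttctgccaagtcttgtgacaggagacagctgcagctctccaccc

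Of the 92 nuclear symbols, 76 were found in the RefSeq promoter table (250 bases before to 50 after the start, with any start of a gene counted). The NRF1 letters occurred in 19 of the 76 (25%), against 1402 of all 27025 genes (5.19%). The ETS letters occurred in 18 of the 76 (23.7%), against 2683 genes (9.93%). Either motif occurred in 33 members (43.4%, against 14.0% of all genes), and both in 4, namely Atp5h, Atp5k, Cox6a1 and Sdhd. Of the 4 restricted forms in the table, Cox6b2, Cox7a1, Cox7b2 and Cox8b, 0 held either motif, too few genes to set against the share of the other members. A match describes these letters in this window and is not a measured binding site.

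Among the kept cells of the 7 classes, nuclear-encoded transcripts were most abundant in colonocyte-like and least abundant in fibroblast-like cells of both libraries. They made up 5.69% (THC) and 5.38% (vehicle) of the UMIs of non-mitochondrial genes in colonocyte-like cells, 5.05% and 4.68% in crypt-like cells, and 4.49% and 4.31% in smooth muscle-like cells. Goblet-like cells had 3.74% and 3.67%. The lymphoid classes were lower, with 2.00% and 2.08% in T-like cells and 1.63% and 1.73% in B-like cells, and fibroblast-like cells had 1.59% and 1.55%. The order of the 7 classes was the same in both libraries. B-like and fibroblast-like cells were the closest neighbours in that order, and their cells overlapped: the middle 50% of vehicle cells spanned 1.37% to 1.95% in the B-like and 1.18% to 1.94% in the fibroblast-like class. Crypt-like and smooth muscle-like cells overlapped as well, at 2.22% to 5.24% and 2.68% to 5.36% in vehicle. The barcodes removed by the mitochondrial limit, 168 THC and 161 vehicle, were rich in colonocyte transcripts and belong to no class here. Their nuclear shares were 3.49% and 3.60%, below those of goblet-like cells. The order of the classes therefore describes kept cells only, and whether it holds with these barcodes included was not tested.

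**Figure D1:**
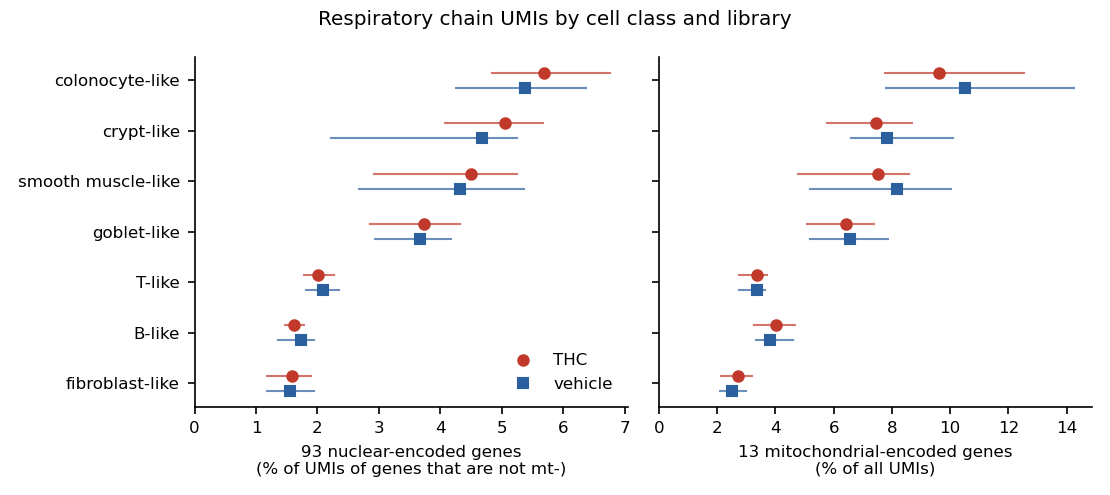
Share of UMIs held by the 93 nuclear-encoded genes (left, percent of the UMIs of genes that are not mt-) and the 13 mitochondrial-encoded genes (right, percent of all UMIs) in 7 cell classes of the THC library (circles) and the vehicle library (squares). Points are the share over the summed UMIs of a class and lines span the middle 50% of its cells; colonocyte-like cells sit highest and fibroblast-like cells lowest in both panels.

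Mitochondrial-encoded transcripts largely followed the nuclear ones, with some changes of place. They made up 9.60% (THC) and 10.5% (vehicle) of all UMIs in colonocyte-like cells, 7.54% and 8.18% in smooth muscle-like cells, 7.44% and 7.82% in crypt-like cells and 6.41% and 6.55% in goblet-like cells. B-like cells followed with 4.01% and 3.81%, T-like cells with 3.36% and 3.36%, and fibroblast-like cells with 2.70% and 2.52%. The order was again the same in both libraries. B-like and T-like cells stood in the opposite order for the nuclear genes, as did smooth muscle-like and crypt-like cells. The colonocyte-like class exceeded the fibroblast-like class by 1.84 (THC) and 1.80 (vehicle) on the log2 scale for nuclear transcripts and by 1.83 and 2.06 for mitochondrial ones. The 20% limit on mitochondrial UMIs cuts the second measure. With a limit of 10% it fell to 1.35 and 1.51, and 33 of the 68 THC and 45 of the 80 vehicle colonocyte-like cells lay at 10% or above.

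The ratio of the genomes varied between classes. The classes with 20 or more cells in each library held between 1.59 (crypt-like, THC) and 2.57 (B-like, THC) mitochondrial UMIs for each nuclear respiratory chain UMI. Several smaller classes fell outside that range in at least 1 library. Dendritic-like cells had 1.79 (THC) and 1.49 (vehicle), mesothelial-like cells 1.45 and 1.12, and pericyte-like cells 2.435 and 2.733. Enteroendocrine-like cells had 2.44 and 3.58, and endothelial-like cells 0.593 and 1.79. Macrophage-like cells (16 THC and 38 vehicle) had 2.91 and 3.60, with nuclear shares of 1.55% and 1.40%. Lymphatic endothelial-like cells (13 and 25) had 0.954 and 0.994, with mitochondrial shares of only 1.73% and 1.67%. Interstitial cell of Cajal-like cells (13 and 10), the pacemakers of gut movement, had nuclear shares of 3.52% and 3.44%, between goblet-like and T-like cells. Plasma-like cells (6 and 11) had 1.27% and 1.19%. The THC endothelial-like class read 4.40% against 1.38% in vehicle, but 1 of its 5 cells had 20971 of the class's 40701 UMIs, held 15 of 16 colonocyte markers and had a nuclear share of 7.0%. Without that cell the value was 1.56%.

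The relation between both genomes' transcripts over the cells of a class varied by class. Over smooth muscle-like cells the Spearman correlation of the nuclear share with the mitochondrial share was 0.716 (48 THC cells) and 0.460 (74 vehicle cells). This class joined cells led by Actg2, Des and Cnn1, with nuclear shares of 4.88% and 4.73%, and cells led by Hhip and Actc1, with 2.72% and 2.57%. In the smooth muscle-like class the nuclear share also followed depth (0.476 and 0.518 with the UMIs of a cell). Over colonocyte-like cells the correlation was 0.359 in THC and 0.007 in vehicle. The values in crypt-like, goblet-like and fibroblast-like cells lay between -0.181 and 0.073. B-like cells had 0.205 and 0.261, and T-like cells 0.023 and -0.241. The cells of a class share a library, so these correlations are descriptions.

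The members differed among themselves in how far they followed these totals. For each gene the level in UMIs per 1000000 non-mitochondrial UMIs (CPM) was set against the median of the other 6 classes in the same library, on the scale log2(CPM + 10). Of the 87 nuclear genes with at least 50 UMIs in the 7 classes, 26 were at least 1 log2 unit higher in colonocyte-like cells in both libraries, where 11.0% of all 10860 genes passed that threshold, and 0 were lower (1.89%). With the 10% mitochondrial limit the count was 42, but the share of all genes was not counted under that limit. Crypt-like cells had 18 higher (all genes 10.1%), smooth muscle-like cells 13 (12.8%; 0 lower, 7.11%) and goblet-like cells 3 (10.0%), the last being Cox6a1, Cox7a1 and Uqcr10. The crypt-like share lay above the background, the smooth muscle-like share near it and the goblet-like share below it. In fibroblast-like cells 45 of 87 were at least 1 log2 unit lower (all genes 6.15%). In B-like cells 37 were lower (12.9%) and 0 higher (6.08%), and in T-like cells 18 were lower (10.4%) and 0 higher (7.09%). The median member was 0.92 (THC) and 0.81 (vehicle) above the other classes in colonocyte-like cells and 1.10 and 1.05 below them in fibroblast-like cells, where the medians over all genes were 0.05, -0.03, -0.06 and -0.08. The 87 include genes that passed the UMI minimum only through the class in which they are high, such as Cox8b.

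The medians of the difference between colonocyte-like and fibroblast-like cells varied by role, while the ranges of the roles overlapped and no test between roles was made. The subunits of complex IV, which reduces oxygen, were higher in colonocyte-like than in fibroblast-like cells by a median of 2.31 (THC) and 2.28 (vehicle) log2 units over 11 widely expressed genes. The 8 subunits of complex III, which passes electrons to cytochrome c, differed by 2.21 and 2.19, and the 15 subunits of ATP synthase by 1.86 and 1.73. Complex II, which also belongs to the citric acid cycle, differed by 1.56 and 1.38 over 4 genes. In complex I, which takes electrons from NADH, the 29 accessory subunits differed by 1.52 and 1.51 and the 7 core subunits by 1.39 and 1.26. The 8 assembly factors of complex I, Ndufaf1 to Ndufaf8, differed by 0.26 and 0.14 only, and 3 of them (Ndufaf2, Ndufaf3 and Ndufaf8) were above 0 in both libraries. These are low genes, and adding 10 CPM shrinks their ratios: summed, the 8 had 279.8 CPM in colonocyte-like and 175.6 CPM in fibroblast-like cells of the THC library, and 266.6 and 190.2 CPM in vehicle. The median over all genes was 0.08 and 0.01.

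**Figure D2:**
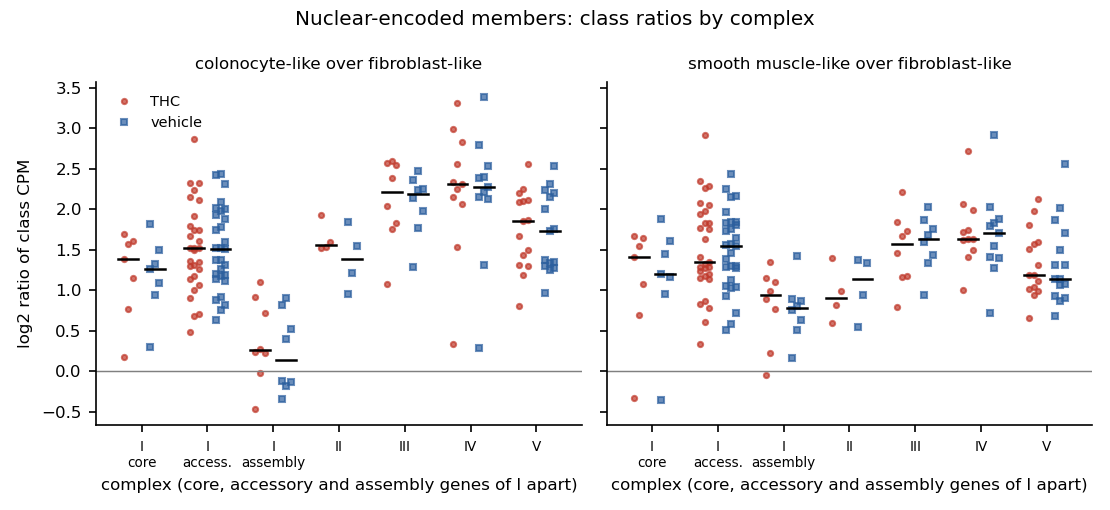
log2 ratio of class CPM (after adding 10) for nuclear-encoded members, colonocyte-like over fibroblast-like cells (left) and smooth muscle-like over fibroblast-like cells (right), in the THC library (circles) and the vehicle library (squares). Each point is a gene and each bar the median of a group; complex III and IV stand highest at left, and the complex I assembly factors lie near 0 at left and at 0.94 and 0.78 at right.

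Smooth muscle-like cells were also above fibroblast-like cells, but with another profile. Complex IV, III and V differed by medians of 1.64, 1.57 and 1.19 in THC and 1.71, 1.64 and 1.14 in vehicle. The accessory subunits of complex I reached 1.35 and 1.55, so that against smooth muscle-like cells the colonocyte-like cells differed by only 0.07 and 0.02 for these genes, but by 0.69 and 0.84 for complex IV subunits. The assembly factors of complex I were higher in smooth muscle-like than in fibroblast-like cells by 0.94 and 0.78. Ndufa11, an accessory subunit in the membrane arm of complex I, was lower in colonocyte-like than in smooth muscle-like cells by 1.35 log2 units in THC and 1.27 in vehicle.

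The 6 nuclear genes with the widest range over the classes were Cox7a1, Cox5a, Ndufaf2, Uqcr11, Ndufa4 and Cox5b. Cox5a and Cox5b encode subunits on the matrix side of complex IV. Cox5a had 1478 CPM (THC) and 1611 CPM (vehicle) in colonocyte-like cells, 1163 and 1077 in crypt-like cells, 782 and 765 in goblet-like cells, 486 and 498 in smooth muscle-like cells, 308 and 312 in T-like cells, 344 and 331 in B-like cells, and 140 and 145 in fibroblast-like cells. It stepped down from epithelium to muscle to lymphoid cells to fibroblasts alike in both libraries. Cox5b took the same course, from 1931 and 1706 CPM in colonocyte-like cells to 234 and 237 CPM in fibroblast-like cells. Uqcr11, a small subunit of complex III, was at 970 and 846 CPM in colonocyte-like cells and at 95.7 and 101 CPM in T-like cells.

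Ndufa4 had another pattern. The gene is named for complex I, but its product is now placed in complex IV. Its level was 1958 CPM (THC) and 1860 CPM (vehicle) in smooth muscle-like cells, 562 and 564 in crypt-like cells, 390 and 398 in goblet-like cells and 367 and 293 in colonocyte-like cells. In T-like cells it was 319 and 322, in fibroblast-like cells 289 and 238, and in B-like cells 249 and 241. Smooth muscle-like cells stood well above all other classes in both libraries, while the colonocyte-like cells, highest for most subunits, were close to the fibroblast-like cells. The log2 difference of colonocyte-like from smooth muscle-like cells was -2.39 and -2.63, the lowest of the 87 genes. Ndufaf2, an assembly factor of complex I, peaked in crypt-like cells at 88.1 and 87.2 CPM, with 39.2 and 48.2 CPM in colonocyte-like cells. At the other end Cox7a2l, listed above as a supercomplex factor, had the narrowest range of the 87 genes, at 0.70 and 0.67 log2 units. Its function in these mice was not tested.

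The tissue-restricted forms had patterns by class of their own, and Cox7a1 was the one that was high in colonocyte-like and low in fibroblast-like cells, as the totals were. For each of these subunits the share of the restricted form in the UMIs of the restricted and widely expressed forms was compared between classes. The 5′ ends of both transcripts need not be captured equally well, so such shares compare classes and do not measure protein ratios. Cox4i2 and Ndufa4l2, which replace Cox4i1 and Ndufa4 and are known as oxygen-responsive forms, were concentrated in the pericyte-like cells, contractile cells that wrap small vessels. The pericyte-like cluster held 5 THC and 7 vehicle cells. It carried Notch3 in all 12 cells, Pdgfrb in all 12 and Rgs5 in 11, while Kcnj8 was at 0 in both libraries. Of the other markers listed for pericytes, Abcc9 had 1 UMI in THC and 0 in vehicle. Cspg4 was found in 2 of 5 THC cells and 5 of 7 vehicle cells. Over all kept cells Kcnj8 had 562 UMIs, Abcc9 380 and Cspg4 201, so most of these lay outside the cluster. Rgs5 had 3577 UMIs, of which 199 (THC) and 101 (vehicle) lay in it, and Pdgfrb 234, with 10 and 12 in it. Notch3 went the other way, with 27 and 27 of its 66 UMIs in the cluster. The cluster also carried smooth muscle markers, summing to 30090 CPM (7 of 9 detected) and 50880 CPM (9 of 9). The same markers summed to 142800 and 118100 CPM in smooth muscle-like cells. Whether the cluster holds pericytes or another contractile cell type was not tested.

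Ndufa4l2 had 37 UMIs against 3 of Ndufa4 in the THC pericyte-like cells (92.5%, interval 79.6% to 98.4%) and 55 against 7 in the vehicle cells (88.7%, 78.1% to 95.3%). All 12 cells held it, at 3 to 16 UMIs in THC cells and 1 to 15 in vehicle cells. Cox4i2 had 44 UMIs against 22 of Cox4i1 in THC (66.7%, 54.0% to 77.8%) and 35 against 46 in vehicle (43.2%, 32.2% to 54.7%), and again all 12 cells held it. The 2 intervals for Cox4i2 overlap narrowly, with 5 and 7 cells behind them. Outside this cluster the forms parted. Cox4i2 was the minor form in interstitial cell of Cajal-like cells, at 33 UMIs beside 204 of Cox4i1 in THC (13.9%) and 41 beside 138 in vehicle (22.9%), where Ndufa4l2 had 0 UMIs. It made up 1.18% and 1.38% in smooth muscle-like cells. Ndufa4l2 made up 9.95% and 4.51% in fibroblast-like cells and had 0 UMIs in smooth muscle-like cells, which were the class highest in Ndufa4. In vehicle endothelial-like cells it had 7 UMIs beside 12 of Ndufa4 (36.8%), all in 1 of 7 cells. In colonocyte-like cells both restricted forms had 0 UMIs in both libraries, which for Cox4i2 stood beside 3248 and 3704 UMIs of Cox4i1 (upper bounds 0.114% and 0.0995%). In B-like cells, which served as a check on free RNA, Cox4i2 had 0 of 79 UMIs (upper bound 4.56%) and 0 of 158 (2.31%).

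**Figure D3:**
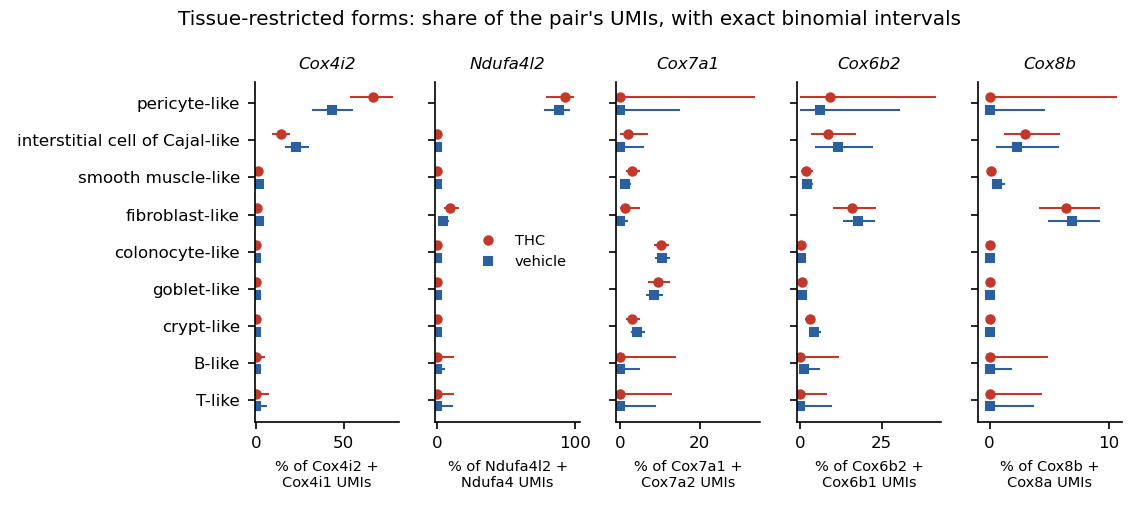
Share of the tissue-restricted form in the UMIs of the pair (percent, horizontal axes on different scales) for Cox4i2, Ndufa4l2, Cox7a1, Cox6b2 and Cox8b in 9 cell classes of the THC library (circles) and the vehicle library (squares), with exact binomial 95% intervals for counting error. Cox4i2 and Ndufa4l2 are highest in pericyte-like cells, Cox7a1 in colonocyte-like and goblet-like cells, and Cox6b2 and Cox8b in fibroblast-like cells.

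Cox7a1, known as the heart and muscle form of subunit 7a, took a larger share in colonocyte-like and goblet-like than in smooth muscle-like cells. In colonocyte-like cells it had 140 UMIs beside 1212 of Cox7a2 in THC (10.4%, interval 8.78% to 12.1%) and 141 beside 1191 in vehicle (10.6%, 8.98% to 12.4%), in 53 of 68 and 53 of 80 cells. In goblet-like cells the share was 9.57% and 8.44%, in crypt-like cells 3.0% and 4.32%, and in smooth muscle-like cells 3.03% and 1.26%. The fibroblast-like cells had 2 UMIs in THC and 0 in vehicle, and the B-like and T-like cells 0 in both, where Cox7a2 had 25 to 74 UMIs. The free RNA of the THC library also held Cox7a1, with 9 UMIs beside 82 of Cox7a2 in barcodes of 1 to 9 UMIs and 14 beside 262 in barcodes of 10 to 99 UMIs. These are larger shares than in crypt-like and smooth muscle-like cells, and the part of free RNA in those classes' Cox7a1 was not tested. Within the goblet-like class it was uneven in both libraries: 14.8% and 13.9% in the cluster led by Zg16, Mptx1 and Clca1, and 3.48% and 2.96% in the cluster led by Muc2, Plet1 and Spdef. With the 10% limit on mitochondrial UMIs the colonocyte-like share was 8.01% in THC and 6.83% in vehicle.

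Cox6b2, known as the testis form of subunit 6b, was most used by fibroblast-like cells. It had 22 UMIs beside 116 of Cox6b1 in THC (15.9%, 10.3% to 23.1%) and 51 beside 238 in vehicle (17.7%, 13.4% to 22.5%), in 19 of 81 and 35 of 136 cells. Crypt-like cells followed with 2.95% and 4.41%, while colonocyte-like cells had 0.264% and 0.319%. In CPM, Cox6b2 and Cox8b were the only 2 of the 87 members at least 1 log2 unit higher in fibroblast-like cells in both libraries, where 13.4% of all genes passed. Cox6b2 was also among the 18 members higher in crypt-like cells.

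Cox8b, known as the heart and muscle form of subunit 8, came from few cells. It had 26 UMIs beside 381 of Cox8a in THC fibroblast-like cells (6.39%) and 42 beside 568 in vehicle (6.89%), in 7 of 81 and 11 of 136 cells. All of these lay in the fibroblast-like cluster led by Has1, Gfpt2, Pcolce2 and Pi16, where the share was 13.3% and 14.5%. At a finer clustering (Leiden resolution 2) they gathered in an unnamed cluster of 17 cells led by Ces1d, Cox8b, Fibin and Thbs2. Cox8b had not been used to cluster. The cluster was raised in 9 fibroblast markers. It went unnamed because the crypt marker Smoc2, and no fibroblast marker, was among its 10 leading genes. In this cluster 15 of 17 cells (6 of 7 THC, 9 of 10 vehicle) held Cox8b, with 62 UMIs in all. With the cluster outside the fibroblast-like class by the naming rule, the share in the remaining fibroblast-like cells fell to 0.64% and 0.80%. Smooth muscle-like cells had 1 UMI in THC and 10 in vehicle, beside 1281 and 1536 of Cox8a. Interstitial cell of Cajal-like cells held Cox8b too, with 8 UMIs in 1 of 13 THC cells and 4 UMIs in 1 of 10 vehicle cells.

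The c subunit of ATP synthase, which forms the rotating ring, is encoded by Atp5g1, Atp5g2 and Atp5g3, whose mature proteins are known to be identical. The share of Atp5g3 among them was highest, of the 7 classes, in smooth muscle-like cells, at 52.8% (THC) and 54.7% (vehicle), against 44.7% and 45.0% in colonocyte-like cells. Atp5g1 was relatively highest in colonocyte-like cells, at 29.0% and 27.2%, against 18.6% and 16.1% in smooth muscle-like cells. Atp5g2 led in B-like cells, at 46.8% and 51.7%, and in fibroblast-like cells, at 43.5% and 41.4%. The classes named here kept their leading gene in both libraries. In T-like cells Atp5g2 and Atp5g3 had 57 UMIs each in THC, and 73 and 64 UMIs in vehicle.

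The make-up of the mitochondrial-encoded transcripts also differed by class. mt-Co1, the catalytic subunit of complex IV, made up 26.0% (THC) and 28.6% (vehicle) of the mitochondrial-encoded UMIs in colonocyte-like cells and 27.8% and 28.0% in goblet-like cells. In smooth muscle-like cells it made up 15.4% and 15.2% and in fibroblast-like cells 17.3% and 17.3%, with lymphoid and crypt-like cells between. mt-Cytb, the core of complex III, was higher in stroma, at 12.1% and 11.8% in smooth muscle-like cells and 12.1% and 11.7% in fibroblast-like cells, against 7.72% and 7.01% in colonocyte-like cells. The lymphoid classes were low in it too, with 6.72% and 7.99% in B-like and 7.99% and 6.35% in T-like cells. The complex I genes mt-Nd2 and mt-Nd4l took larger shares in the stromal and lymphoid classes than in the epithelial ones. mt-Nd2 made up 4.82% and 4.72% in smooth muscle-like cells and 4.87% and 4.27% in B-like cells, against 2.37% and 2.02% in colonocyte-like cells. mt-Nd4l made up 9.74% and 8.49% in smooth muscle-like and 7.38% and 6.56% in B-like cells, against 3.43% and 3.27% in colonocyte-like cells, but it overlaps mt-Nd4 on the mitochondrial genome, so its UMIs may be uncertain. mt-Nd6, the only one of the 13 on the light strand, made up 0.0953% and 0.104% over all cells.

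**Figure D4:**
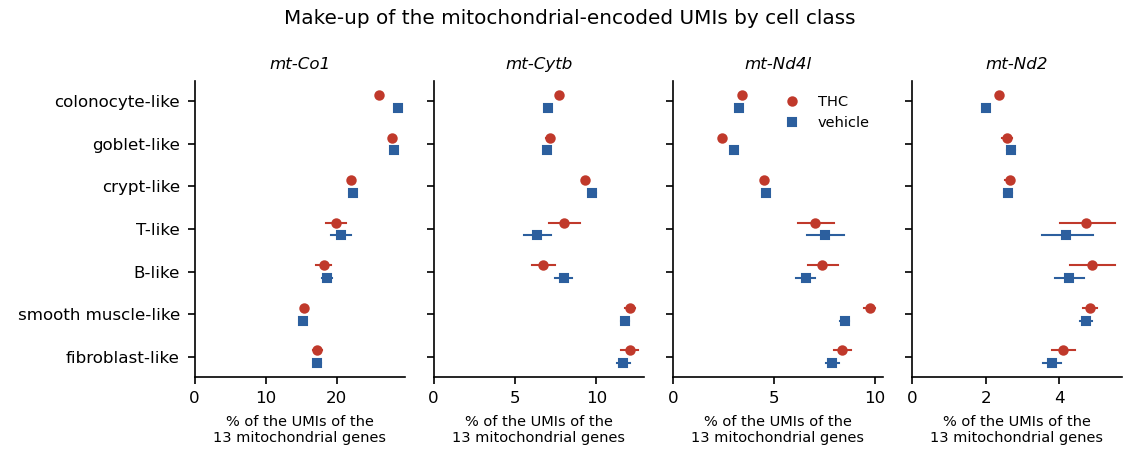
Share of mt-Co1, mt-Cytb, mt-Nd4l and mt-Nd2 in the UMIs of the 13 mitochondrial-encoded genes (percent, horizontal axes on different scales) by cell class in the THC library (circles) and the vehicle library (squares), with exact binomial 95% intervals. mt-Co1 is highest in colonocyte-like and goblet-like cells, and mt-Cytb in smooth muscle-like and fibroblast-like cells.

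Between the libraries the nuclear-encoded genes differed little within a class. Of the 7 classes, 5 had a higher nuclear share in THC and 2 (B-like and T-like) a lower one, with log2 differences from -0.09 to 0.11. In colonocyte-like cells the difference was 0.08 (interval 0.06 to 0.10), in fibroblast-like cells 0.04 (0.00 to 0.08) and in goblet-like cells 0.03 (0.01 to 0.05). The fibroblast-like and goblet-like values changed sign under other processing, and the colonocyte-like value fell to 0.029 with TMM factors and 0.002 with the 10% limit and the classes as analysed. The make-up of the colonocyte-like class differed between the libraries, with 8 THC and 3 vehicle cells in its cluster of highest nuclear share. An unnamed shallow cluster with colonocyte markers (7 THC and 38 vehicle cells) stood outside the class, with nuclear shares of 4.59% and 2.07%. The part of these in the result was not tested. Over all cells the share was 3.90% in THC and 3.41% in vehicle, a log2 difference of 0.19, larger than in any of the 7 classes. The 4 classes with the highest nuclear shares supplied 65.9% of the non-mitochondrial UMIs of the THC library and 60.1% of those of the vehicle library. The mitochondrial-encoded share was lower in THC in 4 classes and higher in 3. It differed by -0.13 in colonocyte-like, -0.03 in goblet-like and 0.10 in fibroblast-like cells. With no limit on mitochondrial UMIs the difference was 0.145 in colonocyte-like and 0.023 in goblet-like cells instead, so no direction can be given for these classes. The fibroblast-like value ranged from 0.015 to 0.246 over the other settings.

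Single members were compared in the 3 classes for which both libraries had at least 50 cells. In colonocyte-like cells 80 nuclear members had at least 50 UMIs, and 1 was at least 0.5 log2 units higher in THC (all genes 7.57%) and 0 lower (6.01%). Their median was 0.08, against 0.04 over all genes. In fibroblast-like cells 2 of 76 were higher (7.84%) and 0 lower (7.16%), with a median of 0.01 that equalled that of all genes. In goblet-like cells 1 of 81 was higher (6.33%) and 1 lower (7.35%), with a median of 0.01 against -0.02. When each library was clustered on its own, 15 members passed 0.5 in colonocyte-like cells and 4 in goblet-like cells. The share of all genes past 0.5 was not counted for that setting, so these counts have no background beside them. The counts with the classes as analysed lay below the background share, beside higher UMI counts. The median member of the colonocyte-like class had 1021.5 UMIs, the median gene 122.

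**Figure D5:**
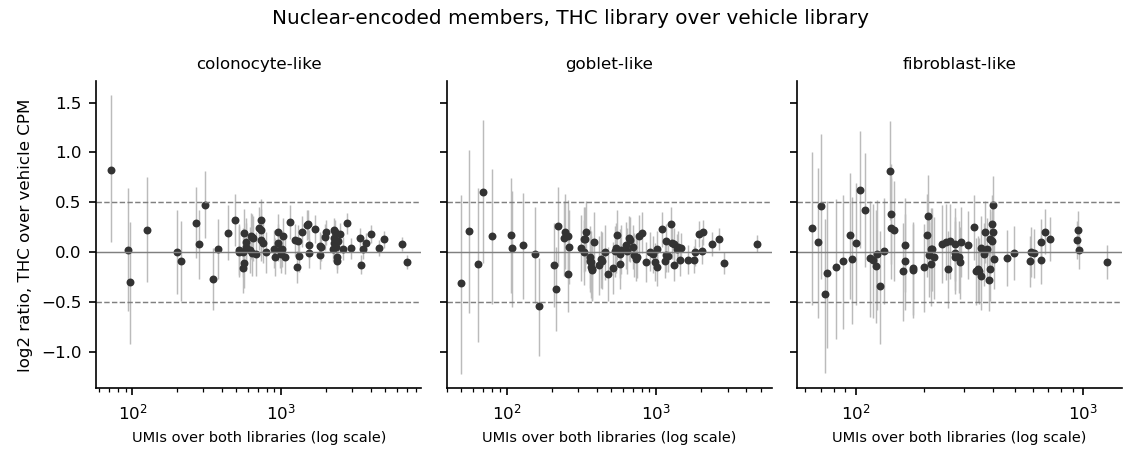
log2 ratio of CPM, THC over vehicle, of the nuclear-encoded members with at least 50 UMIs in colonocyte-like (80 genes), goblet-like (81) and fibroblast-like cells (76), against their UMIs over both libraries (log scale). Vertical lines are exact 95% intervals for counting error and dashed lines mark 0.5 log2 units; the few members past them have low UMI counts.

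In colonocyte-like cells the members highest in THC by the interval bound nearest 0 were Atp5b, the catalytic beta subunit of ATP synthase, Sdhc, a membrane anchor of complex II, and Ndufa7, an accessory subunit of complex I. Atp5b had 1376 CPM in THC and 1127 in vehicle, a log2 difference of 0.29 (0.18 to 0.40). Sdhc had 162 and 117 CPM (0.48, 0.14 to 0.81) and Ndufa7 754 and 621 CPM (0.28, 0.13 to 0.43). On the lower side the rule named Cox4i1, the main regulatory subunit of complex IV, with 3029 and 3249 CPM (-0.10), Cox5a with 1478 and 1611 CPM (-0.12) and the Rieske protein gene Uqcrfs1 with 544 and 602 CPM (-0.15, interval -0.31 to 0.02). The member past 0.5 was Ndufaf4, an assembly factor with 45 and 27 UMIs, named after its values were seen. It was also past 0.5 in goblet-like cells, with 36 and 34 UMIs.

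In fibroblast-like cells Atp5k, a membrane subunit of ATP synthase, had 71 UMIs in THC and 70 in vehicle, or 126 and 71.6 CPM (0.82, interval 0.32 to 1.31). Ndufs6 had 86.9 and 56.3 CPM (0.63) and Ndufa2 318 and 228 CPM (0.48), both in complex I. On the lower side the rule, by the upper bounds, named the complex IV subunits Cox6a1 (-0.27), Cox7c (-0.10) and Cox6b1 (-0.24), but no member was lower in THC with an interval that left out 0. In goblet-like cells Uqcrq, a complex III subunit, had 778 and 638 CPM (0.29, 0.12 to 0.45), followed by Cox6c (0.20) and Atp5g3 (0.19). Ndufb3, a complex I accessory subunit, had 71.9 and 105 CPM (-0.54, -1.04 to -0.06) and was the one member lower in THC with an interval that left out 0. The rule also named Cox4i1 (-0.11) and Atp5a1 (-0.15) there. The 3 classes shared no leading gene in the THC direction, while on the lower side Cox4i1 was named in colonocyte-like and goblet-like cells. With 3 genes taken from 80, 76 and 81 members, lists share few genes in any case, so no conclusion is drawn from this.

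Some mitochondrial genes differed in the same direction in every class, though not always by more than counting error. As a share of the mitochondrial-encoded UMIs, mt-Nd1, mt-Nd3 and mt-Atp8 were higher in THC in 7 of 7 classes, and mt-Atp6 and mt-Nd4 were lower in 7 of 7. Over all cells mt-Nd1 made up 5.06% and 4.63%, mt-Atp8 3.72% and 3.14%, mt-Atp6 16.0% and 16.9%, and mt-Nd4 3.63% and 3.95%. In single classes some intervals overlapped. In colonocyte-like cells mt-Nd4 made up 3.319% (3.216% to 3.425%) and 3.349% (3.254% to 3.447%). In B-like cells mt-Nd3 made up 1.46% (1.142% to 1.838%) and 1.398% (1.182% to 1.641%). The classes of a library were prepared and sequenced together, so they are not independent, and mt-Atp8 overlaps mt-Atp6.

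Other genes of the pathway were counted in the same way, beside the same shares of all genes (6.15% lower and 13.4% higher in fibroblast-like cells, 11.0% higher in colonocyte-like cells). Of 49 assembly factors and carriers listed, 48 were in the files and 45 passed the minimum. In fibroblast-like cells 11 of the 45 were at least 1 log2 unit lower in both libraries and 0 higher, while in colonocyte-like cells 4 were higher (Cyc1, Cox10, Atpif1 and Higd1a) and 0 lower, a share no larger than the 11.0% of all genes. Atpif1, the inhibitor of ATP synthase, had 1023 and 995 CPM in colonocyte-like cells and 195 and 176 CPM in fibroblast-like cells. Of 16 measured regulators, 3 were higher in goblet-like cells (all genes 10.0%) and 4 in colonocyte-like cells (11.0%): Ppargc1a and Ppargc1b, coactivators known to drive mitochondrial genes, their nuclear receptor partner Esrra, and Hif1a. Ppargc1a had 36.4 and 37.7 CPM in colonocyte-like, 66.5 and 76.4 CPM in goblet-like and 1.77 and 1.02 CPM in fibroblast-like cells. Goblet-like cells thus had more Ppargc1a than colonocyte-like cells but a lower nuclear share. Of 15 citric acid cycle genes, 7 were lower in fibroblast-like (all genes 6.15%) and 4 higher in colonocyte-like cells (11.0%), among them Cs, citrate synthase, at 314 and 319 CPM against 63.9 and 66.5 CPM. Of 14 measured glycolysis genes, 2 were lower in fibroblast-like (all genes 6.15%) and 3 higher in colonocyte-like cells (Slc2a1, Pfkl and Ldha; 11.0%). Smooth muscle-like cells had 3 higher (all genes 12.8%) and 1 lower (7.11%), and goblet-like cells 2 higher (10.0%) and 1 lower (1.84%). Crypt-like cells had 1 higher (10.1%), B-like cells 3 lower (12.9%) and T-like cells 1 lower (10.4%).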

How the data were processed

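Single-cell suspensions of colon were run through a droplet 5′ gene expression kit, per the labels' protocols. The deposited matrices hold whole UMI counts per gene and barcode, made by the authors with Cell Ranger 3.0.2, per the file headers. bcl2fastq and Seurat are named in the submitters' processing notes. Of the genome build, the annotation and the handling of reads that match several genes, the sources used here say nothing. The deposited gene and barcode names are other, non-numeric columns.

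Barcodes with at least 1000 UMIs, at least 200 genes and under 20% mitochondrial UMIs were kept, normalized and clustered (Python 3.11.15, scanpy 1.11.5, leidenalg 0.10.2) without the 106 genes, and clusters were named from canonical marker lists. Scrublet marked 1 THC and 2 vehicle cells as doublets, which were kept, so doublets cannot be taken as removed. Counts were summed per library and class. CPM are counts per 1000000 UMIs of genes that are not mitochondrial, and class contrasts used log2(CPM + 10). With 1 library per group there was no test. Intervals are exact 95% Poisson or binomial intervals, and the calculation recovered known ratios on simulated data. The shared droplet RNA was not subtracted.

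The text names the restricted forms with their partners, the 13 mitochondrial-encoded genes and genes of the pathway lists. Between libraries it names the 3 members per direction, with at least 50 UMIs, ranked by the lower interval bound for higher and by the upper bound for lower members, in classes where both libraries had at least 50 cells, and between classes the 6 with the widest range. The members and lists were chosen with earlier results of these data known. Alternatives changed the UMI, mitochondrial and count limits, the doublets, the clustering, the depth and the scaling, the last with edgeR 4.0.16 in R 4.3.3.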

Additional observations from a re-analysis of the deposited data

Results flagged for a closer look

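In THC barcodes of 100 to under 1000 UMIs, which no comparison used, 36.8% of UMIs were mitochondrial, against 4.32% in barcodes of 1 to 9 UMIs and 3.59% in barcodes of 10 to 99 UMIs. The vehicle matrix held no barcode below 502 UMIs, so it gives no value for this. The source of these UMIs was not tested.

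As analysed, the mitochondrial-encoded share had log2 differences, THC over vehicle, of opposite sign in 2 classes, -0.132 in colonocyte-like and 0.099 in fibroblast-like cells. The colonocyte-like value changed sign under 3 other settings, to 0.109, 0.036 and 0.145, so it has no settled direction. With 1 library per group the difference between the classes was not tested.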

How the results depend on the processing

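Of 180 values from 27 results under other settings, 112 stayed the same, 58 moved and 10 changed sign, all 10 being differences between the libraries. Differences and shares were called the same within their interval for counting error. Counts of members have no interval and were called the same within a set ratio of the count as analysed. The cause was not tested. No paired analysis was possible because each group holds 1 library, and for the same reason leaving out a replicate leaves no group. Depth limits members with few UMIs. Interstitial cell of Cajal-like cells gave no value at a minimum of 2500 UMIs because no cells took that name in the new clustering. The limit itself removed none of the cells of this class, which had at least 5153 UMIs each, so the name depends on the clustering.

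For colonocyte-like cells the nuclear difference of 0.08 became 0.129 with mitochondrial UMIs under 10%, 0.121 at Leiden resolution 2, 0.05 with each library clustered on its own, 0.109 as a mean over cells, 0.029 with TMM factors (edgeR) and 0.002 under 10% with the classes as analysed. The mitochondrial difference of -0.132 became -0.08 under 10%, -0.169 at 2500 UMIs, -0.117 without marked doublets, -0.077 with cells thinned to 1000 UMIs, -0.053 as a mean over cells and -0.065 with the same mix of clusters. It changed sign to 0.109 with separate clustering, 0.036 under 10% with the classes as analysed and 0.145 with no limit. The same mix of clusters, and the 10% limit with the classes as analysed, were chosen after seeing the data.

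In fibroblast-like cells the nuclear difference of 0.04 turned to -0.025 at Leiden resolution 2, -0.023 with thinned cells and -0.002 with TMM factors. The mitochondrial difference of 0.099 became 0.053 at 2500 UMIs, 0.015 at Leiden resolution 2, 0.234 with thinned cells, 0.062 with no limit and 0.246 as a mean over cells. In goblet-like cells the nuclear difference of 0.027 became 0.245 with separate clustering, and turned to -0.087 with thinned cells and -0.024 as a mean over cells. The mitochondrial difference of -0.032 became -0.011 under 10%, -0.013 with thinned cells and -0.005 under 10% with the classes as analysed, and turned to 0.151 with separate clustering and 0.023 with no limit.

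The number of members past 0.5 log2 units in colonocyte-like cells, 1 as analysed, was 2 under 10%, at 2500 UMIs and at Leiden resolution 2, 15 with separate clustering, 3 as a mean over cells and 5 over genes with a UMI in each library. In fibroblast-like cells it was 2 as analysed, 4 with thinned cells, 6 as a mean over cells and 9 over genes with a UMI in each library. In goblet-like cells it was 2 as analysed, 4 with separate clustering, 7 with thinned cells and 5 over genes with a UMI in each library. There it was 1 under 10% (with either set of classes), at 2500 UMIs, at Leiden resolution 2, as a mean over cells and with the same mix of clusters. Past 1 log2 unit it was 0 in all 3 classes. The share of all genes was not counted under these other settings.

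Between colonocyte-like and fibroblast-like cells the nuclear difference ranged over 1.752 under 10%, 1.936 at Leiden resolution 2 and 1.924 without mitochondrial, immunoglobulin and ribosomal protein UMIs in THC, and 1.665 under 10%, 1.839 at 2500 UMIs and 1.844 without those UMIs in vehicle. The mitochondrial difference was 1.35 under 10%, 1.921 at Leiden resolution 2 and 1.466 under 10% with the classes as analysed in THC, and 1.508 under both 10% settings in vehicle. The 26 members higher in colonocyte-like cells became 42 under 10%, where the share of all genes was not counted. The Cox7a1 share became 8.01% and 6.83% under 10%. The Cox8b share in fibroblast-like cells became 0.64% and 0.80% at Leiden resolution 2, where the naming rule left the Cox8b-rich cluster outside the class.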
